A study of Mus musculus with 8 samples.

Results

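The melanocortin receptors, their accessory proteins and the proteins that oppose or assist melanocortin signalling were followed as 10 listed genes in mouse brain. The list holds the receptor genes Mc1r, Mc2r, Mc3r, Mc4r and Mc5r, the accessory protein genes Mrap and Mrap2, the inverse agonist genes Agrp and a (agouti), and Atrn (attractin). Of these 10 genes, 9 had a probe set annotated with exactly 1 gene symbol, among 22180 genes so named on the array, and each of the 9 rested on 1 probe set. Agrp matched no probe set in the annotation used here and was not analysed here. In GRCm38.p6, Mc2r, Mc4r and Mc5r lie on chromosome 18, Mc3r, a and Atrn on chromosome 2, Mc1r and Agrp on chromosome 8, Mrap2 on chromosome 9 and Mrap on chromosome 16.

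RNA of whole brain was hybridised to 8 whole-transcript microarrays, 2 in each of 4 groups. The groups were e/e mice given NDP-MSH, e/e mice given phosphate-buffered saline (PBS), wild-type mice given NDP-MSH and wild-type mice given PBS. The e/e mice (C57BL/6Je/e, yellow coat) carry the recessive yellow allele of Mc1r, which gives a receptor that does not signal, and the wild-type mice had black coats. All mice, those given PBS included, received the myelin protein MOG as an immunization that induces an inflammatory demyelinating disease, and brains were taken at disease maximum, day 14. NDP-MSH, a stable synthetic form of alpha-melanocyte-stimulating hormone, went into a vein at a dose of 5 µg on each of days 8, 10 and 12. Genotype was assigned by coat colour. The labels give neither age nor sex nor whether each array was a separate animal, so the spread behind every p-value is that between arrays and may be technical.

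Melanocortin receptors are G protein-coupled receptors that raise cAMP when they bind peptides cut from pro-opiomelanocortin (Pomc). MC1R acts in pigment cells and leukocytes, MC2R is the corticotropin receptor of the adrenal cortex, MC3R and MC4R act in hypothalamic circuits that set feeding and energy use, and MC5R is known from exocrine glands. MRAP carries MC2R to the cell surface and MRAP2 modulates MC4R signalling, while agouti and AgRP lower receptor activity and attractin is needed for agouti to act.

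Each probe set's values were deposited centred on its median over the 8 arrays and are read here as log2 units, a base the labels do not state. They show differences between arrays and not how strongly a gene is expressed. The numerical step left in the values places the signal before centring at 8 or above for Atrn and below 8 in at least 1 array for the other 8 measured members. Of all 33793 probe sets, 7538 were placed at 8 or above and 25729 below 8. The same placement was found at 8 or above for 6 of 6 pan-neuronal genes and 8 of 9 oligodendrocyte and myelin genes. It was found for 5 of 11 cerebellum and 3 of 15 hypothalamic feeding neuron genes, and for 0 of 10 melanocyte, 0 of 6 adrenal cortex and 0 of 6 adipocyte genes. Probe affinities differ, so these placements do not rank genes against each other.

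Some arrays stood apart in ways that touch the comparisons below, as the map of marker lists shows. For 11 cerebellum genes the median was -2.24 and -1.72 with NDP-MSH in wild-type mice, whereas the other 6 arrays had medians from -0.054 to 0.307. The median of 7 anterior pituitary genes reached 0.69 in wild-type NDP-MSH 1 and stayed from -0.066 to 0.05 elsewhere. In that array the 7 genes read from 0.027 (Lhb) to 6.972 (Prl), with Gh at 6.54. The interferon gamma list had medians of -2.29 and -2.28 with NDP-MSH in e/e mice, and under PBS -1.825 in e/e replicate 1 but 0.758 in replicate 2. The Y-linked gene Eif2s3y was high in 3 arrays, at 2.78 and 2.87 with NDP-MSH in e/e mice and 2.04 in e/e PBS replicate 2. It read -0.018 in e/e PBS replicate 1 and from -0.187 to 0.018 in the wild-type arrays, so the genotypes also differ in Y-linked signal. Kdm5d and Uty, also Y-linked, were high in the same 3 arrays, at 2.07 or more and 2.32 or more. Xist, the RNA of the inactive X chromosome, measured -4.458 and -4.555 with NDP-MSH in e/e mice, but 0.561 and -0.819 under PBS, and from -0.561 to 0.666 in wild-type arrays. In whole tissue, fewer cells of a type and less RNA per cell cannot be told apart either.

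**Figure D1:**
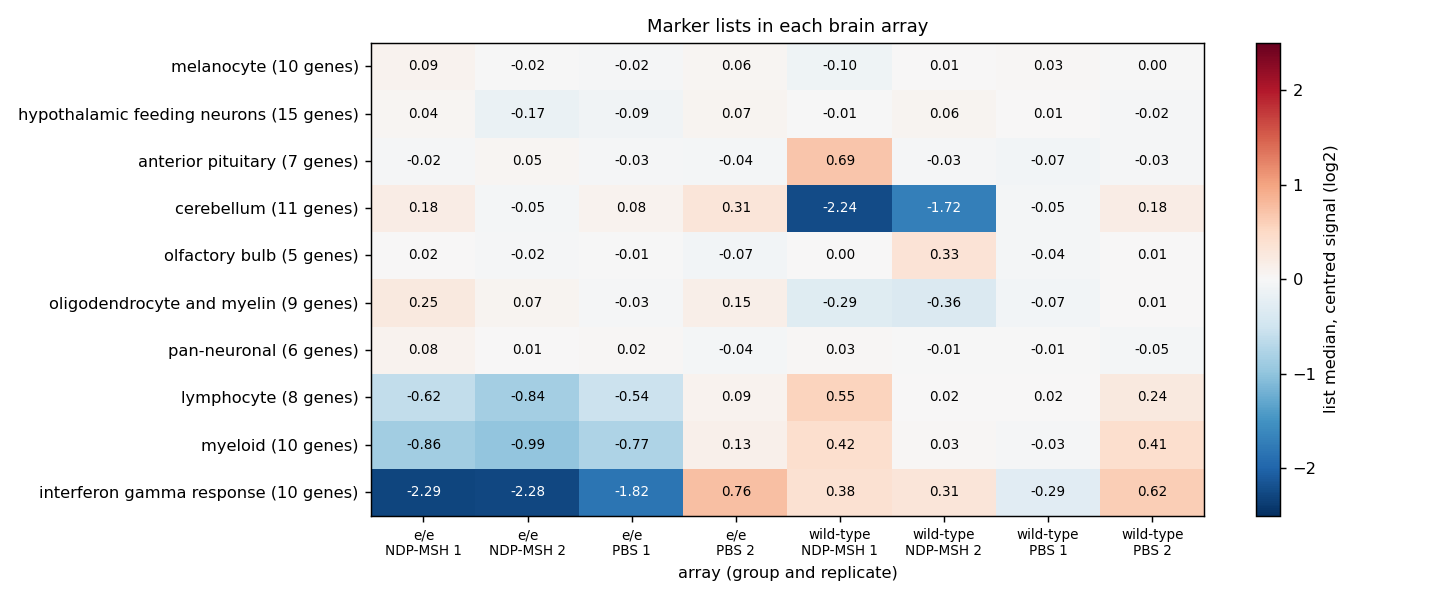
Median centred signal (log2, colour and printed value) of 10 marker lists (rows) in each of the 8 arrays (columns, by group and replicate). Cerebellum genes were low in both wild-type NDP-MSH arrays, pituitary genes were high in wild-type NDP-MSH 1, and interferon gamma genes were low in 3 of the 4 e/e arrays.

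RefSeq promoter windows of assembly GRCm38.p6 were found for 5 of the 10 members (Mc1r, Mc3r, Mrap2, a and Atrn). Those of Mc1r, whose coding sequence the e allele alters, and of Mrap2, the member with the smallest p for a difference between the genotypes' NDP-MSH effects, are shown up to the gene's annotated start. Both genes lie on the plus strand, Mc1r at chr8:123407082-123410744 and Mrap2 at chr9:87144236-87184051. Windows of 250 bases before the table's start were searched on both strands for TGACGTCA, the full cAMP response element, for its half-site TGACG, and for CATGTG, an E-box bound by the pigment cell factor MITF among others. Capitals mark the matches.
Mc1r, chr8:123406832-123407081: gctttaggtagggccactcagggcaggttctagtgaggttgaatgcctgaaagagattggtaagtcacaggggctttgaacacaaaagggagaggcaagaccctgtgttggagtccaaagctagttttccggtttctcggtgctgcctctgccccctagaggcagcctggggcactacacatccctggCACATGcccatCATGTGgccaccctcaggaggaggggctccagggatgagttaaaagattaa
Mrap2, chr9:87144056-87144235: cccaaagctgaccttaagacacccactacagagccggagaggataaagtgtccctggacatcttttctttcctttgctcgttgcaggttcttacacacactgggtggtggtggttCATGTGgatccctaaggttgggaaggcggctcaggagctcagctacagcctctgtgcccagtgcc
CATGTG or its reverse complement CACATG occurred 2 times before Mc1r, at 51 to 46 and 62 to 57 bases before the start, and 1 time before Mrap2, at 135 to 130 bases. These distances count from the start the promoter table uses, which for Mrap2 lies inside the annotated gene, and that part of its window is not printed. The letters occur in 12.3% of 32851 windows of this length in the same table. They had 0 matches in the windows of Mc3r, a and Atrn. TGACG, which is contained in TGACGTCA, is in 17.8% of windows and TGACGTCA in 1.55%, and neither was in the window of any of the 5 members.

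Apart from Mc5r, the receptor genes had ranges over the 8 arrays from 0.151 to 0.269, below the median range of all genes, 0.328. Mc1r, the receptor inactive in e/e mice, read 0 and 0.02 in e/e NDP-MSH, 0 and 0.042 in e/e PBS, -0.144 and 0.067 in wild-type NDP-MSH and -0.031 and 0 in wild-type PBS. Its values of 0 are identical in 3 arrays to the last deposited digit, which holds for 3 or more arrays in 3 of 33793 probe sets in all. NDP-MSH and PBS arrays overlapped in both genotypes, and both the lowest and the highest value belonged to wild-type NDP-MSH. The probe set does not report whether the encoded receptor works.

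The Mc1r genotype difference was within the spread between arrays. It averaged 0.016 ± 0.02 in e/e arrays and -0.027 ± 0.088 in wild-type arrays (SD, n = 4 each), a log2 difference of 0.043 ± 0.061 (SE) with a 95% interval from -0.1 to 0.185 (limma, adjusted p = 0.845). NDP-MSH minus PBS was -0.011 ± 0.086 in e/e mice and -0.023 ± 0.086 in wild-type mice, and the corresponding 95% intervals ran from -0.21 to 0.19 and from -0.22 to 0.18.

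Mc4r, the receptor of hypothalamic satiety circuits, read 0.008 and -0.008 in e/e NDP-MSH, 0.043 and -0.072 in e/e PBS, 0.109 and 0.197 in wild-type NDP-MSH and -0.025 and -0.055 in wild-type PBS. Both wild-type NDP-MSH arrays were above all 6 others, while the e/e groups overlapped. NDP-MSH minus PBS was 0.015 ± 0.076 in e/e mice (limma, adjusted p = 1). In wild-type mice it was 0.19 ± 0.076, or 1.14-fold, which did not pass the threshold of 0.05 (adjusted p = 0.37), and the difference between these effects, e/e minus wild-type, was -0.18 ± 0.11 (adjusted p = 0.736).

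Mc5r had the widest range of the measured members, 0.898 over the 8 arrays, which is above that of 95.6% of genes. It read 0.132 and -0.464 in e/e NDP-MSH, -0.041 and 0.041 in e/e PBS, 0.434 and 0.178 in wild-type NDP-MSH and -0.126 and -0.21 in wild-type PBS. The wild-type NDP-MSH arrays were the highest of all 8, and the e/e NDP-MSH arrays lay on both sides of the e/e PBS arrays. Neither the e/e difference of -0.17 ± 0.18 (adjusted p = 1) nor the wild-type difference of 0.47 ± 0.18, or 1.39-fold, passed (adjusted p = 0.367). The e/e minus wild-type difference of effects was -0.64 ± 0.26 (adjusted p = 0.631), with values of -0.94 without e/e NDP-MSH 1 and -0.34 without e/e NDP-MSH 2.

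Mc3r, the second hypothalamic receptor, read 0.089 and -0.099 in e/e NDP-MSH, -0.086 and -0.014 in e/e PBS, -0.102 and 0.016 in wild-type NDP-MSH and 0.014 in both wild-type PBS arrays. Mc2r, the corticotropin receptor, read -0.108 and 0.021 in e/e NDP-MSH, -0.023 and -0.011 in e/e PBS, 0.043 and 0.011 in wild-type NDP-MSH and -0.083 and 0.034 in wild-type PBS. For both genes the NDP-MSH and PBS arrays overlapped in each genotype. Their 4 NDP-MSH minus PBS differences lay between -0.057 and 0.051. The range of Mc2r over the arrays, 0.151, exceeded that of 7.8% of genes.

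**Figure D2:**
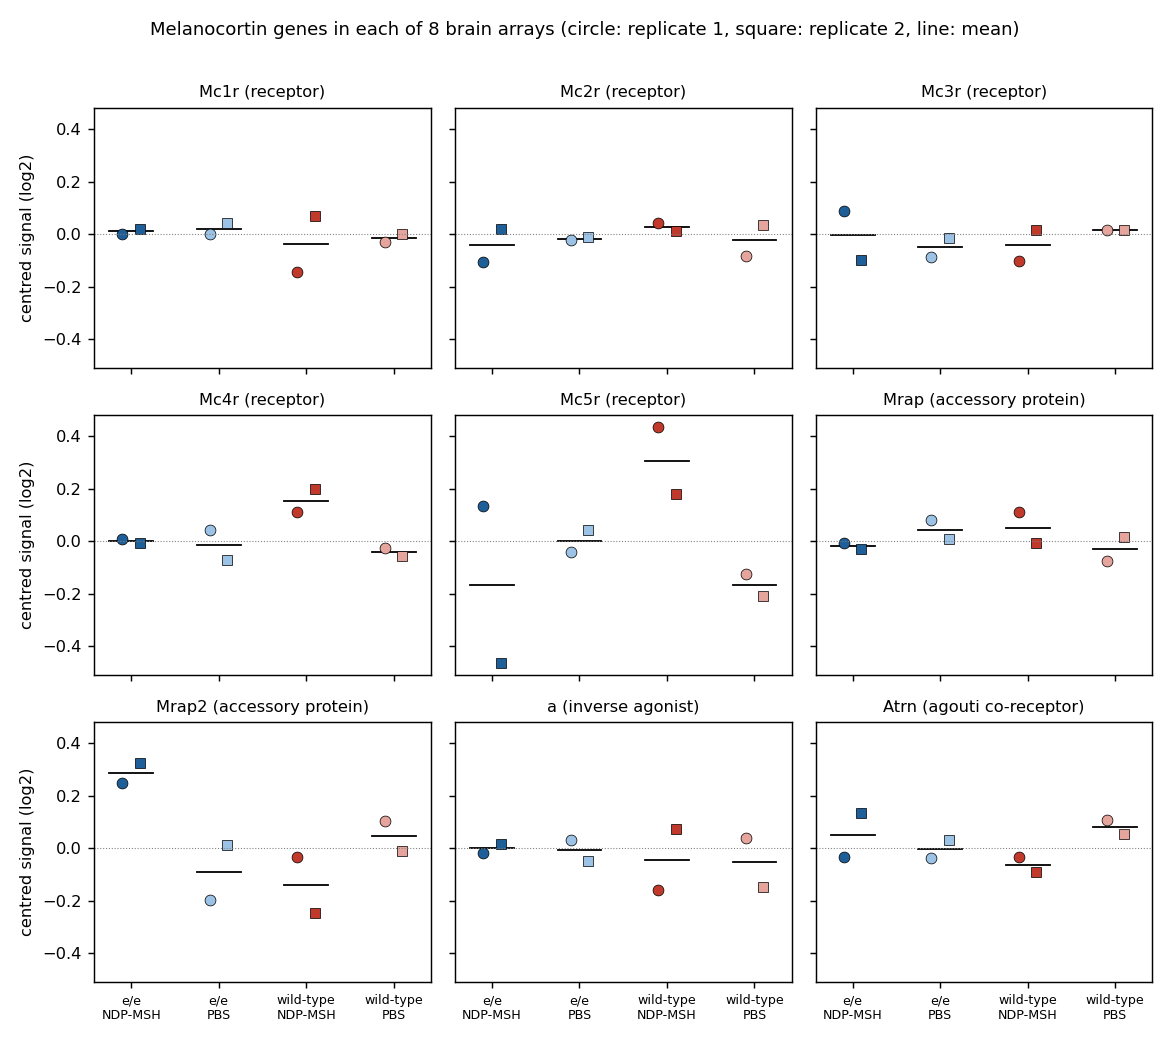
Centred signal (log2, vertical axis) of the 9 measured melanocortin genes in each array, by group (circle, replicate 1; square, replicate 2; line, group mean). The e/e NDP-MSH arrays are the highest for Mrap2, at 0.247 and 0.324, and the wild-type NDP-MSH arrays are the highest for Mc4r and Mc5r.

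Of the accessory proteins, Mrap2 had the larger differences between groups. Mrap2, whose protein binds MC4R and other feeding-related receptors, read 0.247 and 0.324 in e/e NDP-MSH, -0.196 and 0.012 in e/e PBS, -0.034 and -0.248 in wild-type NDP-MSH and 0.102 and -0.012 in wild-type PBS. The e/e NDP-MSH arrays were above all others, and in wild-type mice both NDP-MSH arrays were below both PBS arrays. The difference was 0.38 ± 0.11 in e/e mice, or 1.3-fold (limma, adjusted p = 1), and -0.19 ± 0.11 in wild-type mice (adjusted p = 0.507). The e/e minus wild-type difference of effects was 0.56 ± 0.15, with a 95% interval from 0.21 to 0.92, and did not pass after adjustment over all genes (adjusted p = 0.491).

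Opposite and non-overlapping NDP-MSH effects, lower in wild-type and higher in e/e mice, were found in 723 of 22180 genes (3.26%), Mrap2 among them. Besides the 2 e/e NDP-MSH arrays, Y-linked signal was also high in replicate 2 of e/e PBS, and the interferon gamma list was also low in replicate 1 of e/e PBS. The e/e difference of Mrap2 was 0.27 without e/e PBS replicate 1 and 0.48 without replicate 2, each with a single PBS array left. Neither value is matched for sex-linked signal, since Xist differed between the e/e NDP-MSH arrays and both e/e PBS arrays. The part of the sex-linked and interferon gamma values in those of Mrap2 was not tested. The wild-type difference of -0.19 became -0.079 without wild-type NDP-MSH 2 and -0.293 without wild-type NDP-MSH 1.

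Mrap, the accessory protein of the corticotropin receptor, read -0.008 and -0.029 in e/e NDP-MSH, 0.079 and 0.008 in e/e PBS, 0.111 and -0.008 in wild-type NDP-MSH and -0.076 and 0.014 in wild-type PBS. The e/e NDP-MSH arrays were below the e/e PBS arrays by a small margin, with a difference of -0.062 ± 0.078, and the wild-type groups overlapped, with 0.082 ± 0.078. Neither passed (adjusted p = 1 and 0.7).

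Neither agouti nor attractin passed the test in either genotype. The agouti gene a, which in skin switches hair pigment from black to yellow, is inactive in the hair of black C57BL/6 mice through their nonagouti allele. It read -0.017 and 0.017 in e/e NDP-MSH, 0.032 and -0.05 in e/e PBS, -0.158 and 0.071 in wild-type NDP-MSH and 0.04 and -0.148 in wild-type PBS. NDP-MSH and PBS arrays overlapped in both genotypes, with differences of 0.0089 ± 0.1 in e/e mice and 0.011 ± 0.1 in wild-type mice.

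Atrn, whose loss in mice and rats leads to a lack of myelin and to vacuoles in the brain, read -0.032 and 0.134 in e/e NDP-MSH, -0.039 and 0.032 in e/e PBS, -0.033 and -0.092 in wild-type NDP-MSH and 0.108 and 0.054 in wild-type PBS. Both wild-type NDP-MSH arrays were below both wild-type PBS arrays, and the e/e groups overlapped. The e/e difference was 0.055 ± 0.083 (adjusted p = 1), and the wild-type difference was -0.14 ± 0.083, or 0.9-fold (adjusted p = 0.506). In those wild-type NDP-MSH arrays the oligodendrocyte and myelin list had medians of -0.295 and -0.356, against -0.071 and 0.009 under PBS. All 9 of its measured genes were below 0, at a median difference of -0.305, and 0 of 9 passed. Their groups did not overlap, which held in that direction for 18.9% of all genes. The part of this list in the Atrn values was not tested.

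Counted together, 0 of 9 members had an adjusted p under 0.05 (limma) in the e/e comparison, where 0.0% of all genes did, and at an unadjusted p under 0.05 the count was 1 of 9 (Mrap2), against 3.56% of all genes. Groups did not overlap for Mrap2 (higher) and Mrap (lower), 2 of 9, and for 30.3% of all genes (16.0% higher and 14.3% lower). The median difference was 0.009 over the members and 0.0082 over all genes.

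In wild-type mice 0 of 9 members passed, where 0.176% of all genes passed. At an unadjusted p under 0.05 the wild-type count was 2 of 9 (Mc4r and Mc5r), against 12.3% of all genes. The wild-type groups did not overlap for 4 of 9 members, Mc4r and Mc5r higher and Mrap2 and Atrn lower, and for 44.2% of all genes (25.3% higher and 18.9% lower). The median difference of the 9 was 0.011, beside 0.018 over all genes. In the same wild-type NDP-MSH arrays 11 of 11 cerebellum genes were lower, 9 of which fell past the threshold, among them Cbln3 at -3.05 ± 0.21 (limma, adjusted p = 0.00662) and Gabra6 at -3.02 ± 0.20, both of granule cells. Without wild-type PBS 2 neither passed (adjusted p = 0.128). The part of these cerebellum values, and of the low myelin list, in the wild-type values of Mc4r, Mc5r, Mrap2 and Atrn was not tested.

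For the e/e minus wild-type difference of effects, 0 of 9 members passed, where 0.0% of all genes did, and 2 of 9 (Mc5r and Mrap2) had an unadjusted p under 0.05, against 7.71% of all genes.

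**Figure D3:**
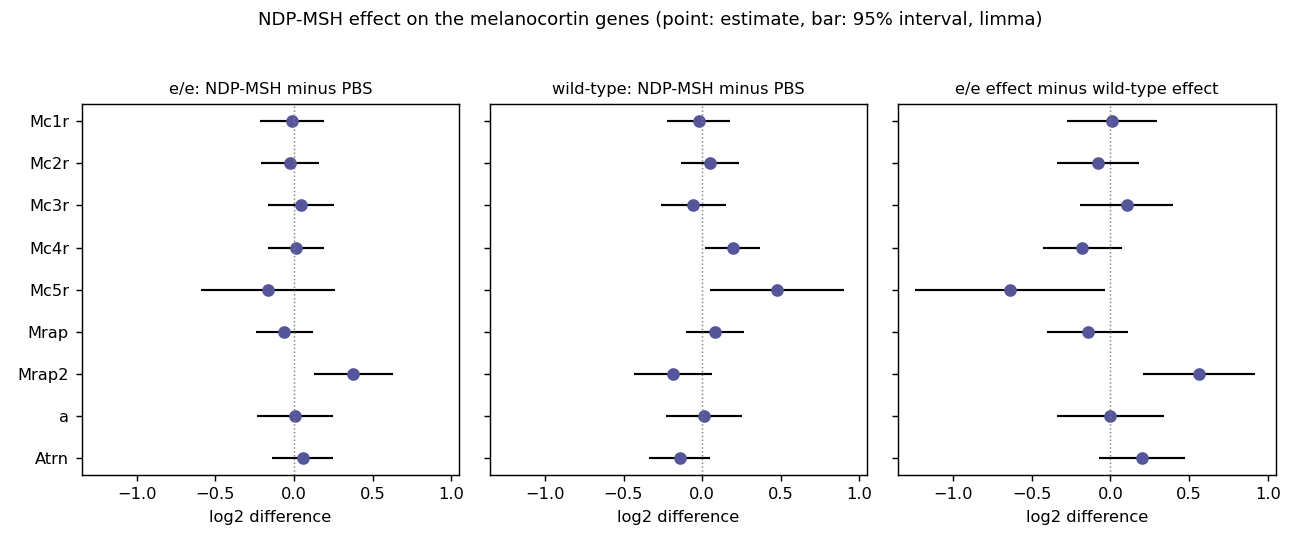
NDP-MSH minus PBS difference (log2, horizontal axis) of each measured member in e/e mice, in wild-type mice, and e/e minus wild-type, with 95% intervals from limma. Only the intervals of Mrap2 in e/e mice, of Mc4r and Mc5r in wild-type mice, and of Mc5r and Mrap2 for the difference of effects leave out 0, and none of these passed after adjustment over all genes.

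Between genotypes no member passed either. Under PBS the e/e minus wild-type differences ran from -0.14 (Mrap2) to 0.17 (Mc5r), with 0 of 9 past an adjusted p of 0.05 (0.0% of all genes) and 0 of 9 at an unadjusted p under 0.05 (4.91%). The PBS groups did not overlap for 3 of 9 members, Mc5r higher in e/e and Mc3r and Atrn lower, and for 34.1% of all genes (17.4% higher and 16.7% lower). Over both treatments, with 4 arrays a side, the differences ran from -0.15 (Mc5r) to 0.145 (Mrap2). Here 0 of 9 passed an adjusted p of 0.05, where 0.0316% of all genes did, 0 of 9 had an unadjusted p under 0.05 (12.2% of all genes), and 0 of 9 had groups that did not overlap (5.15%, with 2.58% higher and 2.57% lower).

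In 4 lists of genes around the receptors no gene passed in either genotype, where 0.0% of all genes passed in e/e and 0.176% in wild-type mice. In the list of melanocortin peptide processing, 0 of 7 measured genes passed in either genotype, with median differences of 0.07 in e/e and 0.2 in wild-type mice. Its smallest p in e/e mice belonged to Scg5, a chaperone of a prohormone convertase, at 0.14 ± 0.097 (adjusted p = 1). Pomc, the precursor of all natural melanocortin agonists, read 0.005 and 0.238 in e/e NDP-MSH, -0.013 and 0.117 in e/e PBS, 3.64 and -0.005 in wild-type NDP-MSH and -0.231 and -0.165 in wild-type PBS. The value of 3.64 came from wild-type NDP-MSH 1, the array with high pituitary genes, and Pomc is abundant in the pituitary. The wild-type difference of Pomc was 2.02 ± 0.95 (adjusted p = 0.435). It was 3.84 without wild-type NDP-MSH 2 and 0.19 without wild-type NDP-MSH 1, each with a single NDP-MSH array left in that group.

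Of the agouti and receptor partners 0 of 5 passed in either genotype. Mgrn1, the ubiquitin ligase of the mahoganoid locus, had the smallest p in e/e mice, at 0.15 ± 0.081 (adjusted p = 1), and Corin, a protease known to modify the agouti pathway in the coat, in wild-type mice, at -0.48 ± 0.16 (adjusted p = 0.316). In the Gs, adenylyl cyclase and protein kinase A list 0 of 31 passed in either genotype, and 16 of 31 were above 0 in e/e and 17 of 31 in wild-type mice. Of all genes, 53.7% were above 0 in e/e and 55.0% in wild-type mice. Its smallest p belonged to the cyclase gene Adcy2 in e/e mice, at 0.32 ± 0.11, and to the kinase regulatory subunit gene Prkar2b in wild-type mice, at 0.47 ± 0.15 (adjusted p = 1 and 0.303).

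Among 12 genes known to respond to cAMP, 0 passed in either genotype, and 3 were above 0 in e/e and 9 in wild-type mice, beside those same shares of all genes, with medians of -0.096 in e/e and 0.14 in wild-type mice. The nuclear receptor gene Nr4a1 differed by -0.095 ± 0.3 in e/e and 0.12 ± 0.3 in wild-type mice. Junb, an AP-1 subunit gene, lay at -0.38 ± 0.095 in e/e mice (adjusted p = 1), and Nr4a2 at 0.51 ± 0.11 in wild-type mice (adjusted p = 0.193). The e/e minus wild-type difference of effects for Nr4a2 was -0.71 ± 0.16 (adjusted p = 0.416).

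Markers of the cell types known for these receptors were also read. Of the melanocyte genes 0 of 10 passed in either genotype, with medians of 0.048 in e/e and -0.051 in wild-type mice. The smallest p values were those of Gpr143 in e/e mice at -0.17 ± 0.089 and Tyrp1 in wild-type mice at -0.11 ± 0.087, both genes of the pigment organelle. Of 15 genes of hypothalamic feeding neurons 0 passed in either genotype, with medians of -0.054 in e/e and 0.008 in wild-type mice. The smallest p there belonged to Pmch, the melanin-concentrating hormone gene, in e/e mice at -1.05 ± 0.54, and to the leptin receptor gene Lepr in wild-type mice at 0.23 ± 0.076 (adjusted p = 1 and 0.319). Pmch read 0.04 and -1.638 in e/e NDP-MSH 1 and 2. Of 6 adrenal cortex and 6 adipocyte genes 0 passed in either genotype. The steroidogenic gene Cyp11a1 differed by 0.19 ± 0.096 in e/e and 0.35 ± 0.096 in wild-type mice, and the lipid droplet gene Cidec by 0.17 ± 0.084 in e/e and 0.33 ± 0.084 in wild-type mice.

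In the other marker lists, cerebellum apart, no gene passed in either genotype. In e/e mice the interferon gamma, myeloid and lymphocyte lists had the lowest median differences, at -1.65, -0.63 and -0.434. The homeostatic microglia list was at -0.008. The 2 e/e PBS arrays differed, with medians of -1.825 and 0.758 for interferon gamma and -0.77 and 0.127 for myeloid genes. Below 0 were 10 of 10 interferon gamma, 10 of 10 myeloid and 6 of 8 lymphocyte genes, where 53.7% of all genes were above 0. The smallest p belonged to Irgm2 at -1.83 ± 0.64, Fcgr1 at -1.29 ± 0.42, the lymphocyte list's Ptprc at -1.29 ± 0.55 and the homeostatic microglia list's P2ry12 at 0.26 ± 0.16 (adjusted p = 1 each). For other lists it belonged to Eomes (olfactory bulb) at -0.64 ± 0.3, Aqp1 (choroid plexus) at -0.16 ± 0.1, Opalin (myelin) at 0.3 ± 0.18, Ghrhr (pituitary) at 0.23 ± 0.14, Tubb3 (neurons) at 0.12 ± 0.075 and Arhgef33 (cerebellum) at -0.36 ± 0.16. In wild-type mice the smallest p belonged to Cdhr1 (olfactory bulb) at 1.46 ± 0.48, Aspa (myelin) at -0.51 ± 0.11, Slc4a5 (choroid plexus) at -0.45 ± 0.3, Ghrhr at 0.36 ± 0.14 and Tubb3 at 0.18 ± 0.075. Wild-type NDP-MSH 1 and 2 differed widely for Cdhr1 (0.489 and 2.233), Slc4a5 (-0.718 and 0.226) and Ghrhr (0.56 and 0.07). In the immune lists of wild-type mice the smallest p belonged to Cxcl10 at 0.59 ± 0.83, S100a8 (myeloid) at 0.35 ± 0.27, Cd3e (lymphocyte) at 0.38 ± 0.37 and Siglech (microglia) at 0.14 ± 0.13.

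The genes most like each receptor over the 8 arrays were taken by Pearson's r among 17163 genes. They were Hoxa9 (r = 0.96) and Wif1 (0.945) for Mc1r, Adad1 (0.966) and Dok2 (0.952) for Mc2r, and Sapcd2 (0.93) and Ctnnbip1 (0.923) for Mc3r. For Mc4r they were Tbrg1 (0.991) and Rasl10a (0.99), and for Mc5r Ect2 (0.973) and Txndc9 (0.972). These are the highest of many values over 8 arrays that share group and array differences, and they serve as a description only.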

How the data were processed

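Total brain RNA was prepared by kit and biotin-labelled cDNA was made with the Affymetrix WT Plus reagents, per the labels. The deposited table holds the authors' processed values, taken as log2, for 33793 probe sets and 8 arrays. The sources used here do not give summarisation, normalization, log base or filters. Row medians are 0 to within 5e-07. Probe sets with 1 symbol (23521) were averaged per gene to 22180 genes, those with several (1814) or none (8458) were left out, and no filter on level was possible. Signal placement used the single-precision step (tolerance 0.05 of a step), which left 526 probe sets unresolved.

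Tests used limma 3.58.1 in R 4.3.3, fitting all 8 arrays with a coefficient for each group (4 residual and 3.45 prior degrees of freedom), two-sided, with Benjamini-Hochberg adjustment over all genes for each of 5 comparisons. The fit was tested on simulated data (22180 genes), with each gene's within-group spread over all 8 arrays and independent noise. A log2 change was added to the wild-type NDP-MSH arrays. Array shifts shared by many genes, as in the cerebellum list, were not simulated. The fit called 0% of genes with a change of 0.25, 24% with 0.5, 68% with 1 and 96% with 2. It also called 5 of 21980 genes left unchanged. The number of arrays limits the precision. All members are named, and from each list up to 2 rises and 2 falls past the threshold, or else the smallest p, with Pomc, Nr4a1 and the sex-linked genes. List genes so chosen are printed for the NDP-MSH comparisons. For the difference of effects and the genotype comparisons only Nr4a2 and Lepr are. Prl, Gh and Lhb are printed for wild-type NDP-MSH 1 alone. In the likeness search, other members, predicted genes, small RNAs and olfactory or vomeronasal receptor genes were left out. Members and lists were chosen with earlier results of these data known. Promoter sequences are those of RefSeq, GRCm38.p6. Slide and scan date were not used here. Figures were drawn with matplotlib 3.10.9.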

Additional observations from a re-analysis of the deposited data

Results flagged for a closer look

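The NDP-MSH effect on Mrap2 pointed in opposite directions in the genotypes, with both NDP-MSH arrays above both PBS arrays in e/e mice and below them in wild-type mice. The e/e minus wild-type difference of effects was 0.56 (limma, adjusted p = 0.491), so the difference did not pass after adjustment over all genes. This pattern in either orientation was found in 1427 of 22180 genes (6.43%).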

How the results depend on the processing

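No member passed an adjusted p of 0.05 in any of the 5 comparisons under any of the 16 alternatives that gave a value (smallest adjusted p = 0.257, Mc5r in wild-type mice with only the 4 arrays compared). These were a replicate block, weights per array, quantile or median scaling, a fit to the compared arrays alone and single probe sets. The others were probe sets at 8 or above (Atrn alone of the members), robust moderation, and each array left out. Both arrays of a group received the same weight, so no array was weighted down against its replicate. Of 45 member differences, 23 kept their sign throughout, Mrap2 in all 5 comparisons and Mc4r and Mc5r in wild-type mice among them. The other 22, none above 0.166 in size, changed sign in at least 1 setting. The block, weights, compared arrays alone, single probe sets and robust moderation left the members' estimates unchanged. Groups did not overlap for Mc4r and Mc5r in wild-type mice and for Mrap2 in each genotype. For those differences, leaving out 1 array could not change the sign, so a kept sign adds little. Without each array in turn the difference of effects in Mrap2 lay between 0.457 and 0.670, its wild-type difference between -0.293 and -0.079, and the wild-type difference of Mc4r between 0.15 and 0.24 and of Mc5r between 0.35 and 0.60. The 39 calls over all genes in wild-type mice became 14 with the replicate block, 20 after quantile normalization, 22 for single probe sets, 5 with only the 4 arrays compared, and 0 to 49 without 1 array. In e/e mice the count of 0 became 51 without the first PBS array and 4 without the second. Between genotypes over both treatments, 7 became 32 at 8 or above, 0 with the block or single probe sets, and up to 383 without the second e/e PBS array. With the block, members past the threshold stayed at 0 in each comparison. Deviations of same-numbered arrays correlated at r over 0.1 in 3 of 6 pairs of groups. The r values differed in sign, between -0.251 and 0.443, and the numbers were not taken as pairs.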

Other observations

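Lepr, the leptin receptor gene of hypothalamic feeding neurons, was lower in all 4 e/e arrays than in all 4 wild-type arrays. It read -0.136 and -0.172 in e/e NDP-MSH, -0.202 and -0.228 in e/e PBS, 0.358 and 0.465 in wild-type NDP-MSH and 0.23 and 0.136 in wild-type PBS. The e/e minus wild-type difference over both treatments was -0.48 ± 0.053 (limma, adjusted p = 0.0525), short of the threshold, and 2.57% of all genes had e/e arrays all below the wild-type arrays. It passed in 1 of 13 alternatives (adjusted p = 0.0195, second e/e PBS array left out), and adjusted p reached 0.228 in the others. Of the 15 genes in its list, 12 were below 0 in this comparison, with a median of -0.07, while 48.3% of all genes were above 0. The median of the homeostatic microglia list was also lower in all 4 e/e arrays than in all 4 wild-type arrays. It was -0.028 and -0.219 in e/e NDP-MSH, -0.13 and -0.094 in e/e PBS, 0.292 and 0.189 in wild-type NDP-MSH and 0.001 and 0.153 in wild-type PBS. Of the 5 measured genes in that list, 5 were below 0 and 3 had groups that did not overlap. Conversely, 9 of 9 oligodendrocyte and myelin genes were above 0, and 3 of them had groups that did not overlap (2.58% of all genes, higher). That list's medians were low in the wild-type NDP-MSH arrays, at -0.295 and -0.356. Its median difference was 0.282 over both treatments and 0.084 under PBS alone. Of 11 cerebellum genes, 11 were above 0 and 4 passed, where 0.0316% of all genes did. Their medians were low in the wild-type NDP-MSH arrays, at -2.237 and -1.716. The myeloid and interferon gamma lists were low in 3 of the 4 e/e arrays. Y-linked signal was high in 3 of the 4 e/e arrays, all but e/e PBS replicate 1, and in no wild-type array. The part of these lists and of the Y-linked signal in the Lepr values was not tested.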
